A study of Mus musculus with 10 samples.

Results

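Small leucine-rich proteoglycans (SLRPs) are secreted matrix proteins built from leucine-rich repeats, many of which carry glycosaminoglycan side chains. The genes described here are the 9 SLRP genes Dcn, Bgn, Aspn, Fmod, Lum, Prelp, Omd, Ogn and Podn, taken as a list by name from 18193 genes measured, and none of them was chosen by its value. The data come from 5 arrays of carcinoma-associated fibroblasts (CAF), the fibroblasts found within a tumour, and 5 arrays of fibroblasts from normal lung, both from the mouse. All cells had been in culture before RNA was taken: they were grown out of lung tissue for 10 to 14 days with 10% serum and then kept overnight on fresh dishes. Each array is labelled as a biological replicate, and tumour model, genotype, strain, age and sex are not given. Where replicates share an animal or culture is not stated, and p-values measure only the spread between these samples. Values are the authors' RMA log2 expression, in which 1 unit is a doubling, with 3.98 as the lowest of the table. Each probe set binds with its own efficiency, so levels are compared between arrays for 1 gene and not between genes.

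SLRPs bind to the surface of collagen fibrils, where they set fibril diameter and spacing, and several hold growth factors such as TGF-beta in the matrix. The family is divided into classes by sequence: decorin, biglycan and asporin form class I, fibromodulin, lumican, PRELP and osteomodulin class II, osteoglycin belongs to class III and podocan to class V. In lung, fibroblasts are a main source of decorin, biglycan and lumican, and decorin and lumican are widely used as markers of fibroblasts in tissue.

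The arrays differed among themselves in cell markers, and 1 of them stood apart in the SLRP genes. Normal replicate 2 had the highest value of all 10 arrays for 6 of the 9 members, Dcn, Bgn, Lum, Prelp, Podn and Omd. On that array the 13 measured of 14 fibroblast markers had their highest mean, 14.08, the 8 mesothelial markers their lowest, 5.79, and the 15 macrophage markers their lowest, 9.32. The mean of the fibroblast markers ran between 12.75 and 13.68 on CAF arrays and between 12.56 and 14.08 on normal arrays. The mesothelial mean ran between 6.61 and 8.78 on CAF arrays and between 5.79 and 10.33 on normal arrays. The macrophage mean ran between 10.26 and 12.67 on CAF arrays and between 9.32 and 12.63 on normal arrays, with Lyz2, the lysozyme of myeloid cells, at 14.24 or above on all 10. Normal replicate 3 stood apart in the 7 measured of 8 neutrophil markers, with a mean of 10.38 where the other 9 arrays had 6.57 to 7.48. On that array S100a9, a calcium-binding protein of neutrophils named after its values were seen, had 14.29, where the others had 5.27 to 7.05. S100a8, the brightest of the list, had 14.18 there, but also 9.69 to 12.74 on the CAF arrays. Camp, Mpo and Elane were also highest on normal replicate 3. Csf3r was highest on normal replicate 1, at 7.47 against 6.68 on replicate 3, and Cxcr2 had 6.11 on both. No marker of these 4 lists was listed at 0, and RMA gives no call of absence. In RNA of a whole culture, fewer cells of a type and less RNA per cell cannot be told apart. The array codes begin with ls for all 5 CAF arrays and for normal replicates 4 and 5, and with vs for normal replicates 1 to 3. The labels do not explain the prefixes, and differences against each kind of normal array are given beside each SLRP gene, and beside the related genes where they lay farthest apart in ratio.

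The comparison of CAF with normal fibroblasts asks whether SLRP expression differs between the groups once both are in culture. None of the 9 members passed the test: limma, fitted over all genes with Benjamini-Hochberg adjustment, called 0 of 9 at an adjusted p under 0.05, where 0.753% of all genes were called (0.561% higher and 0.192% lower in CAF). At an unadjusted p under 0.05 there were 2 members, Ogn and Podn, both lower in CAF, where 22.3% of all genes passed, 10.5% higher and 11.8% lower in CAF. The exact permutation test gave the same 2 members at an unadjusted p under 0.05, each at p = 0.0317, with the share over all genes not counted. After adjustment over all genes it gave 0, but that count was fixed by the number of arrays. Its smallest possible p, 0.00794, needs full separation of the groups. With 7.16% of all genes separated, no gene could pass 0.05 after adjustment. The values of the 5 CAF and 5 normal arrays did not overlap in 0 of 9 members, where this held for 7.16% of all genes (2.97% higher and 4.19% lower in CAF). The difference was positive for 3 members and negative for 6, with a median of -0.21. Over all 18193 genes it was positive for 7777 and negative for 10416, with a median of -0.04. The size and the spread of the difference varied widely from member to member, as the plot of differences with their intervals shows.

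**Figure D1:**
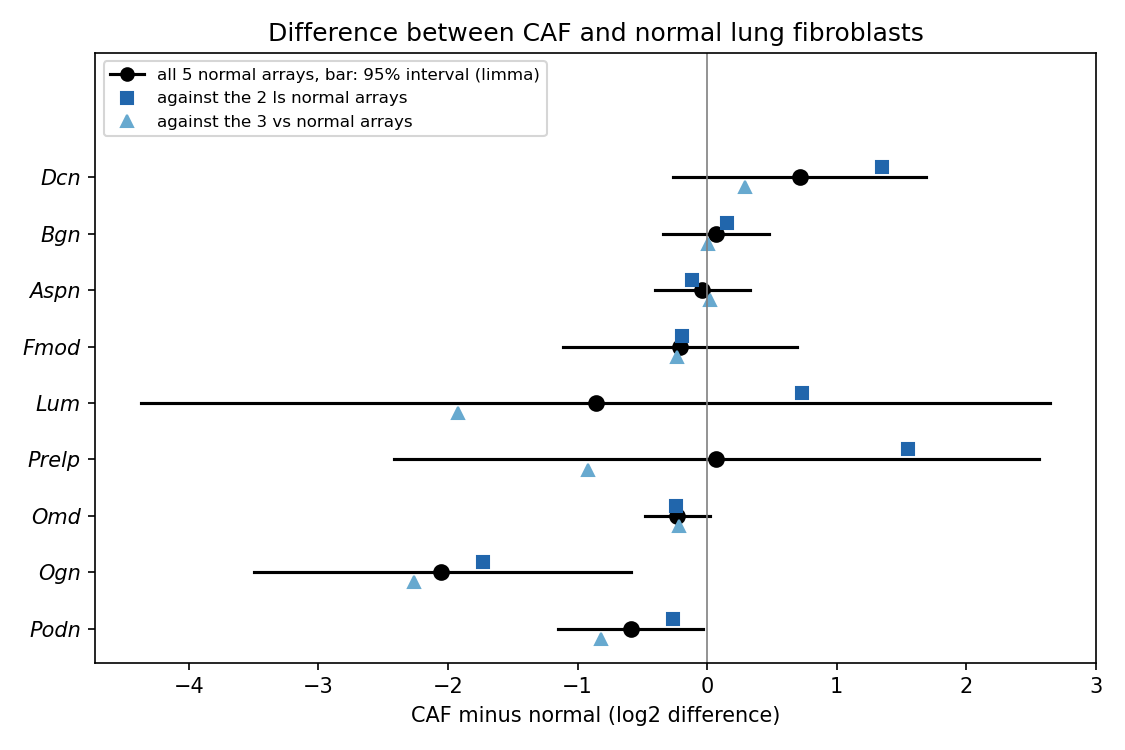
CAF minus normal log2 difference of each SLRP gene (x axis), with black points for all 10 arrays and bars for the 95% interval of the limma fit, blue squares for the difference against the 2 ls normal arrays and light triangles against the 3 vs normal arrays. Ogn lies farthest from 0 at -2.05, and the intervals of Lum (-4.37 to 2.65) and Prelp (-2.42 to 2.56) are the widest.

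Decorin and biglycan, the class I proteoglycans that carry chondroitin or dermatan sulfate chains, read near the upper end of the scale on every array. Dcn, whose product coats collagen and binds TGF-beta, had 14.53, 13.29, 14.16, 14.57 and 14.08 on the CAF arrays, against 13.99, 14.74, 12.77, 13.08 and 12.47 on the normal arrays. On 4 CAF arrays it was above every normal array but normal replicate 2, which was the highest of all. The CAF mean was 14.13 ± 0.52 and the normal mean 13.41 ± 0.94 (SD, n = 5 each), a difference of 0.72 ± 0.44 (log2, SE) with a limma adjusted p = 0.353. With only the ls normal arrays the difference was 1.35 (adjusted p = 0.11 in limma on those arrays, where 1 of 18193 genes was called). With only the vs normal arrays it was 0.29. Without normal replicate 2 the difference was 1.05 (adjusted p = 0.127). A dimmer probe set of Dcn, at a mean of 6.27, had a difference of -0.01 ± 0.21.

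Bgn, biglycan, which is X-linked and can act as a signal through the receptors Tlr2 and Tlr4 once released from matrix, had 14.94, 14.91, 15.05, 15.04 and 14.77 on the CAF arrays, against 15.10, 15.40, 14.27, 14.66 and 14.91 on the normal arrays. The CAF values all lay inside the range of the normal values. The means were 14.94 ± 0.11 in CAF and 14.87 ± 0.43 in normal fibroblasts, and the difference was 0.07 ± 0.18 (95% interval -0.34 to 0.48, limma adjusted p = 0.851). With only the ls normal arrays the difference was 0.15 and with only the vs arrays 0.01. The other probe sets of Bgn both had a difference of 0.13. The direction rests on normal replicate 3, the lowest array, without which the difference was -0.08. That array also had the highest neutrophil marker mean, 10.38, and the lowest fibroblast marker mean, 12.56, whose part in the result was not tested. Its values lay near the top of the scale, and whether saturation touched them was not tested.

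Aspn, asporin, a class I protein with an aspartate-rich start that binds collagen and carries no glycosaminoglycan chain, read near the bottom of the scale. It ran between 4.80 and 5.50 on CAF arrays and between 4.96 and 5.33 on normal arrays, below the median of all probe sets of every array (6.73 to 6.79). The CAF values fell into 2 levels, 5.45 and 5.50 on replicates 1 and 4 and 4.80 to 4.81 on the other 3, with all normal values in between. The difference was -0.04 ± 0.16 (limma adjusted p = 0.91) and 0.07 in the dimmer probe set, and the sign turned when CAF replicate 2, 3 or 5 or normal replicate 5 was left out (0.02 to 0.03). Against the ls normal arrays alone the difference was -0.12 and against the vs arrays alone 0.02.

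Lumican and PRELP, class II members, had the widest ranges over the arrays among the SLRP genes. As in every other member, the range within at least 1 group was larger than the difference between the group means. Lum, which limits fibril thickness and is needed for a clear cornea, had 14.12, 7.06, 8.28, 10.33 and 7.09 on the CAF arrays, against 10.30, 14.49, 9.10, 9.11 and 8.18 on the normal arrays. A single array of each group, CAF replicate 1 and normal replicate 2, was far above the others, and CAF replicates 2 and 5 were the lowest. Between its highest and lowest array Lum spanned 7.43 log2 units, a 172-fold range, which ranked 9 among the 18193 genes. The means were 9.38 ± 2.97 in CAF and 10.24 ± 2.49 in normal fibroblasts, with a difference of -0.86 ± 1.57 (limma adjusted p = 0.775). Leaving out normal replicate 2 gave 0.20, leaving out CAF replicate 1 gave -2.04 and leaving out both gave -0.98. With only the ls normal arrays the difference was 0.73 and with only the vs arrays -1.92. Lum was read by 1 probe set.

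Prelp, whose product has a basic start that binds heparan sulfate and may anchor basement membranes to collagen, had 8.71, 7.38, 9.35, 10.73 and 8.78 on the CAF arrays, against 9.42, 13.05, 7.28, 7.36 and 7.51 on the normal arrays. Of the normal arrays 3 lay close together at 7.28 to 7.51, level with CAF replicate 2, and the other 4 CAF arrays lay above these 3. Normal replicate 2 was again the highest of all, and the whole range was 54.6-fold, ranked 47 among all genes. The means were 8.99 ± 1.21 in CAF and 8.92 ± 2.47 in normal fibroblasts, with a difference of 0.07 ± 1.11 (limma adjusted p = 0.977). Without normal replicate 2 it was 1.10 (adjusted p = 0.334), and it was negative without CAF replicate 3 or 4 or normal replicate 3, 4 or 5 (-0.37 at the lowest, without CAF replicate 4). With only the ls normal arrays it was 1.55 and with only the vs arrays -0.92, and the other probe set had 0.79 ± 1.52.

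**Figure D2:**
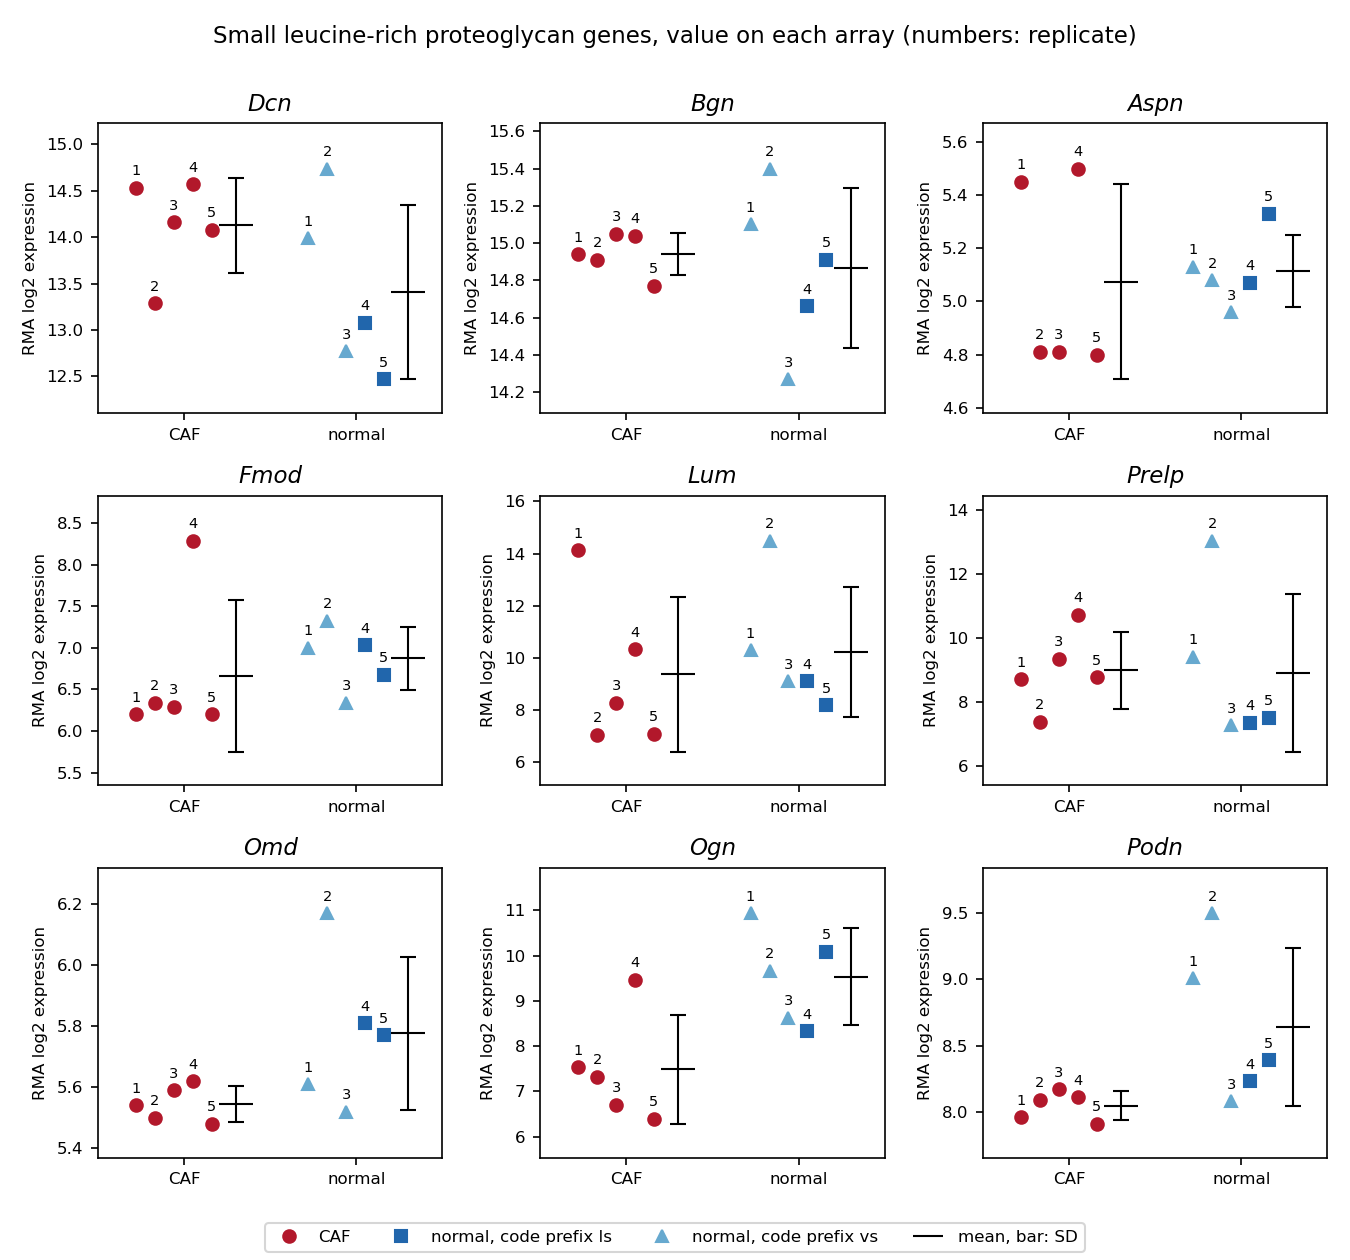
RMA log2 expression (y axis, own scale in each panel, not starting at 0) of the 9 SLRP genes on each of the 5 CAF and 5 normal arrays, numbered by replicate, with the mean and SD beside the points. Lum on CAF replicate 1 (14.12) and normal replicate 2 (14.49) and Prelp on normal replicate 2 (13.05) lie far above the other arrays of their group, and 4 of 5 CAF points of Ogn lie below all normal points.

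Fmod, fibromodulin, a class II keratan sulfate proteoglycan that steers collagen fibril assembly and cross-linking, had 6.20, 6.34, 6.29, 8.29 and 6.20 on the CAF arrays, against 7.0, 7.33, 6.34, 7.03 and 6.68 on the normal arrays. CAF replicate 4 had the highest value of all arrays, and the other 4 CAF arrays lay at or below the lowest normal array. The means were 6.66 ± 0.91 in CAF and 6.88 ± 0.38 in normal fibroblasts, and the difference was -0.21 ± 0.40 (limma adjusted p = 0.784). Without CAF replicate 4 it was -0.62 (adjusted p = 0.164). Against the ls normal arrays alone the difference was -0.19 and against the vs arrays alone -0.23. The 5 dimmer probe sets had differences of -0.08 to 0.06, and CAF replicate 4 was the highest array in each of them. Omd, osteomodulin, a class II protein known from bone matrix, was dim, between 5.48 and 5.62 on CAF arrays and between 5.52 and 6.17 on normal arrays. Its 3 highest arrays were normal replicates 2, 4 and 5, and the difference was -0.23 ± 0.11 (limma adjusted p = 0.264), or -0.13 without normal replicate 2. With only the ls normal arrays the difference was -0.24 and with only the vs arrays -0.22.

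Ogn, osteoglycin or mimecan, a class III member found in bone, cornea and the vessel wall, had the largest difference of the 9. It had 7.53, 7.32, 6.70, 9.47 and 6.40 on the CAF arrays, against 10.94, 9.67, 8.63, 8.33 and 10.09 on the normal arrays. On 4 of 5 CAF arrays it was below every normal array, and CAF replicate 4 lay above normal replicates 3 and 4. The means were 7.48 ± 1.20 in CAF and 9.53 ± 1.07 in normal fibroblasts, a difference of -2.05 ± 0.65 (95% interval -3.50 to -0.59), which makes the CAF level 0.242 of the normal level, with a limma adjusted p = 0.121 (exact permutation p = 0.0317). The other probe set had -2.43 ± 0.78. It was -1.73 with only the ls normal arrays and -2.26 with only the vs arrays, and between -2.54 and -1.70 when any 1 array was left out (adjusted p of 0.119 to 0.256). The mesothelial markers Lrrn4 and Gpm6a had differences of -2.99 ± 1.15 and -2.93 ± 1.12 on the same arrays (limma adjusted p = 0.17 and 0.169, chosen after their values were seen). All 8 mesothelial markers had a negative difference, as had 10416 of all 18193 genes. The median of the mesothelial list was -0.44, and its other 6 markers lay between -1.07 (Upk3b) and -0.17 (Krt19). Ogn was also high on normal replicate 2, at 9.67, where that list had its lowest mean. The part of mesothelial RNA in the difference of Ogn was not tested.

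Podn, podocan, a class V member known from kidney and vessel wall, had 7.96, 8.09, 8.17, 8.11 and 7.91 on the CAF arrays, against 9.01, 9.50, 8.08, 8.23 and 8.39 on the normal arrays. The CAF arrays lay within 0.27 of each other, and every normal array but replicate 3 was above all of them. The means were 8.05 ± 0.11 in CAF and 8.64 ± 0.60 in normal fibroblasts, with a difference of -0.59 ± 0.25 (95% interval -1.15 to -0.03, limma adjusted p = 0.201, exact permutation p = 0.0317). It was -0.26 with only the ls normal arrays, -0.82 with only the vs arrays and -0.38 without normal replicate 2. Podn was read by 1 probe set.

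The order of the arrays differed between members. The spread between arrays was larger in the normal group for 5 of the 9 members, Dcn, Bgn, Prelp, Podn and Omd, and larger in CAF for Lum, Fmod, Ogn and Aspn, against 71.1% of all genes with more spread among normal arrays. The arrays with the 3 lowest mesothelial means, normal replicate 2 (5.79), CAF replicate 4 (6.61) and CAF replicate 1 (7.10), were also the 3 highest for Dcn (14.74, 14.57 and 14.53) and for Lum (14.49, 10.33 and 14.12). For Prelp normal replicate 2 and CAF replicate 4 were again the highest, at 13.05 and 10.73, but normal replicate 1, with the highest mesothelial mean, came next at 9.42, above CAF replicate 1 at 8.71. That array also followed closely for Lum, at 10.30, just below CAF replicate 4. Ogn had another order, with its highest value, 10.94, on normal replicate 1, the array with the highest mesothelial mean, 10.33. The mean of the macrophage markers was 12.67 on CAF replicate 1 and 9.32 on normal replicate 2, the 2 arrays on which Lum was highest. The part of cell makeup in these orders was not tested.

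**Figure D3:**
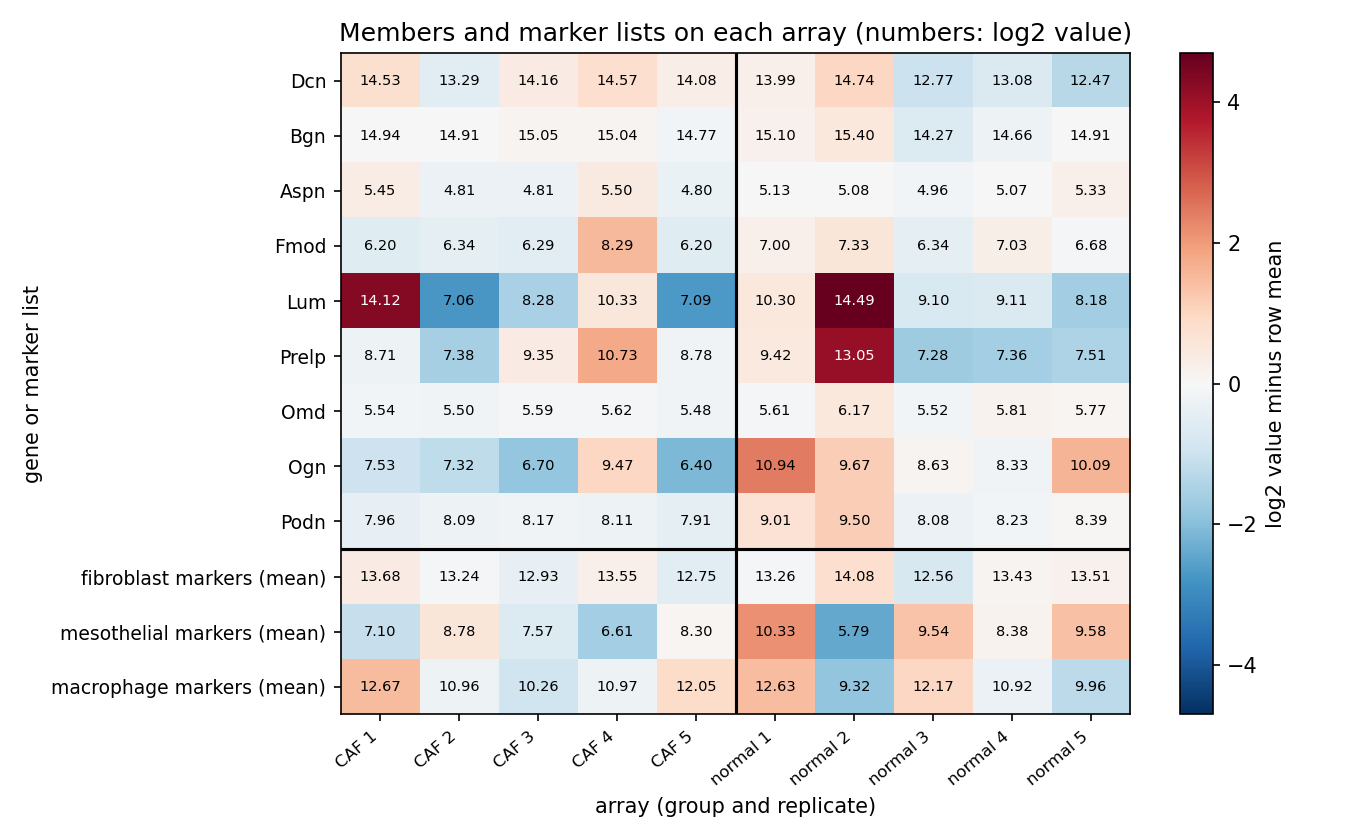
RMA log2 value of each SLRP gene and mean of 3 marker lists on each array (columns, CAF left of normal), coloured by the difference from the row's mean over the 10 arrays. Normal replicate 2 has the highest values in 6 members and the lowest mesothelial (5.79) and macrophage (9.32) means.

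The genes whose pattern over the 10 arrays was most like that of a member were sought among 6372 genes with an SD of at least 0.3. This is a description of these arrays, which share cell makeup and culture. The 2 closest genes of each member are given by Pearson r, followed by r without the 2 arrays farthest from the member's median. For Dcn they were Acvrl1, a receptor of the TGF-beta family (r = 0.979, then 0.96, Spearman correlation 0.96), and Bfar (0.965, then 0.97). For Bgn they were Zdhhc8, a palmitoyltransferase (r = 0.970, then 0.95, Spearman correlation 0.99), and Ltbp2, a microfibril protein (0.964, then 0.84). For Prelp they were Celf5, an RNA-binding protein (r = 0.985, then 0.93, Spearman correlation 0.90), and the transporter Slc10a6 (0.977, then 0.90). These members kept an r of at least 0.84 without the extreme arrays. For Omd they were Mfap4, a microfibril-associated glycoprotein (r = 0.983, then 0.91, Spearman correlation 0.95), and the transcription factor Mecom (0.931, then 0.79). For Lum they were Abi3bp, a matrix protein (r = 0.919, then 0.63, Spearman correlation 0.82), and Rarres2, which encodes chemerin (0.902, then 0.90). For Podn they were Pgrmc2 (r = 0.975, then 0.69, Spearman correlation 0.76) and the methyltransferase Inmt (0.974, then 0.62), so that much of the likeness to Podn lay in 2 arrays. For Fmod they were Ccdc3 (r = 0.921, then 0.75, Spearman correlation 0.87) and Sncg (0.898, then 0.70). For Aspn they were Lhx8 (r = 0.871, then 0.66, Spearman correlation 0.75) and Mcf2l (0.842, then 0.54). For Ogn Armcx2 had an r of 0.861, then 0.72 (Spearman correlation 0.88).

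Most SLRP genes lie next to other SLRP genes. On chromosome 10 Dcn and Lum are followed by Kera and Epyc, on chromosome 1 Optc, Prelp and Fmod are adjacent, and on chromosome 13 the order is Ecm2, Aspn, Omd and Ogn, per the RefSeq gene table of GRCm38.p6. In the chromosome 10 group, Kera, keratocan of the cornea, stayed between 4.52 and 4.68 on all 10 arrays, whereas Lum spanned 7.43 log2 units. In the chromosome 13 group, Ogn spanned 4.54 log2 units, Aspn 0.70 and Omd 0.69. The RefSeq promoter table (GRCm38.p6) held 7 of the 9 members. The 250 bases before the start site are shown for Bgn and for the 3 chromosome 13 neighbours, of which only Ogn had a wide range between arrays. The range among CAF arrays was 0.28 for Bgn, and it was narrower for Podn (0.27) and Omd (0.14). The windows are chr13:49607765-49608014 (+ strand) for Ogn, chr13:49582212-49582461 (+) for Omd, chr13:49544193-49544442 (+) for Aspn and chrX:73483351-73483600 (+) for Bgn. Capitals mark motif matches on either strand. The TATA box was searched as TATAAA and the GC box as GGGCGG. The other motifs were the CCAAT box, searched by those letters, and the AP-1 site, searched as TGANTCA.
Ogn: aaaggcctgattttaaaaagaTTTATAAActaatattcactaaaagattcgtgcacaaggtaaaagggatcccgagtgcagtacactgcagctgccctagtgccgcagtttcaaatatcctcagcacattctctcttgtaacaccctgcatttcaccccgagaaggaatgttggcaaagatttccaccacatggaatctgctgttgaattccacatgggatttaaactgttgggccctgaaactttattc
Omd: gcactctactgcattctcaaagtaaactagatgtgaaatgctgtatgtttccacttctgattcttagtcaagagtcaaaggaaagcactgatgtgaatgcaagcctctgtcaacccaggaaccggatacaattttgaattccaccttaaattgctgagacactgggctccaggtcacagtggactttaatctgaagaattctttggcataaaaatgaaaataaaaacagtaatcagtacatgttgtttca
Aspn: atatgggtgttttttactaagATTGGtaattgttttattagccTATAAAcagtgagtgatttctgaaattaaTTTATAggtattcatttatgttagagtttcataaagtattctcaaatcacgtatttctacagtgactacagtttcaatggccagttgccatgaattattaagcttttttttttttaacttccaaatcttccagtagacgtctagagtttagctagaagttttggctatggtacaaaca
Bgn: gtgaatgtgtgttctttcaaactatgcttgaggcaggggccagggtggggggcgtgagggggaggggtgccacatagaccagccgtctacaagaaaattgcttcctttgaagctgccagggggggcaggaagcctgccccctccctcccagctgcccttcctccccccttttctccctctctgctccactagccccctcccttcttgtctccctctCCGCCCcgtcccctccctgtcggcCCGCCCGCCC

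The windows of the 3 neighbours were rich in A and T, with a GC content of 42.0% in Ogn, 38.4% in Omd and 30.0% in Aspn, against a median of 52.4% over 32851 promoter windows of that length. The window of Bgn had 64.4% GC, and the windows of both listed Podn starts had 78.0% and 64.0%. TATAAA occurred in Ogn as 2 overlapping matches on opposite strands, 229 and 227 bases before the start at their first base, and 2 times in Aspn, where 12.4% of all windows hold a match. GGGCGG occurred 3 times in Bgn, the nearest 6 bases before the start, and 2 times in 1 of the Podn windows, where 32.7% of all windows hold one. CCAAT was found in Aspn and Prelp, where 33.8% of all windows hold one. TGANTCA was found in 0 of the 8 member windows, where 6.75% of all windows hold one. No match of 1 motif overlapped that of another in the windows shown, and a match is a description of the letters.

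The other genes of the family did not pass the test. Of 9 further SLRP genes 7 were measured, Kera, Epyc, Optc, Ecm2, Chad, Chadl and Nyx, and Podnl1 and Tsku were not analysed here. Limma called 0 of 7, with 2 at an unadjusted p under 0.05, both lower in CAF, where 22.3% of all genes passed and 11.8% were lower. The median difference was -0.13. All were dim. Nyx, nyctalopin of the retina, had 5.77 to 6.02 on CAF arrays and 6.04 to 6.24 on normal arrays (difference -0.25 ± 0.07, limma adjusted p = 0.0888). Chad, chondroadherin of cartilage, had 7.03 to 7.25 on CAF arrays and 7.26 to 7.41 on normal arrays (-0.23 ± 0.06, adjusted p = 0.0933). Chadl had -0.18 ± 0.11 (adjusted p = 0.338). The array medians over all probe sets were lower on CAF arrays (6.73 to 6.74) than on normal arrays (6.76 to 6.79). The upper quartiles went the other way, with 9.21 to 9.29 on CAF arrays and 9.05 to 9.12 on normal arrays. Median centring did not shrink the differences of Nyx and Chad, which were then -0.29 and -0.27.

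None of the measured enzymes that build the side chains of the SLRPs passed the test. Of 6 measured enzymes of the linker that joins chain to protein, 0 passed and 4 were positive (median 0.13). Pxylp1, the phosphatase that lets the chain grow beyond the linker, had 9.51, 8.60, 9.49, 10.00 and 9.02 on the CAF arrays, against 7.25, 8.80, 8.25, 8.84 and 8.80 on the normal arrays (0.94 ± 0.35, limma adjusted p = 0.165). With only the ls normal arrays its difference was 0.50 and with only the vs arrays 1.23. The kinase Fam20b had 0.25 ± 0.11 (adjusted p = 0.227), or 0.18 and 0.29 by prefix, and the galactosyltransferase B4galt7 0.35 ± 0.19 (adjusted p = 0.313). Of 16 enzymes of chondroitin and dermatan sulfate, the chains of decorin and biglycan, 0 passed, 14 were positive and the median was 0.20. Chst11, a chondroitin sulfotransferase, had 11.97, 11.60, 12.48, 11.88 and 11.98 on the CAF arrays, against 10.24, 11.17, 10.44, 11.23 and 11.78 on the normal arrays (1.01 ± 0.29, adjusted p = 0.0969). Only CAF replicate 2 lay below a normal array. Most of the difference came from the vs normal arrays: it was 1.37 with only these (adjusted p = 0.0633) and 0.48 with only the ls arrays (adjusted p = 0.246). The difference was larger in Csgalnact1, an enzyme that starts the chondroitin chain, at 1.28 ± 0.57 (adjusted p = 0.219), or 1.68 and 1.02 with only the ls and only the vs arrays, a gene chosen after its value was seen. The related Chst7 had 0.64 ± 0.20 (adjusted p = 0.116) and Chst3 -0.25 ± 0.07 (adjusted p = 0.0892). Of 8 keratan sulfate enzymes, whose product decorates lumican and fibromodulin, 0 passed and 2 were positive (median -0.03), with Chst1, a keratan sulfate sulfotransferase, at 0.84 ± 0.28 (adjusted p = 0.134), B4galt1, a galactosyltransferase, at -0.21 ± 0.10 (adjusted p = 0.264) and Chst5 at -0.17 ± 0.09 (adjusted p = 0.297). Of all 18193 genes 7777 were positive and the median was -0.04. The counts and medians of these lists have no test of their own.

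Of the 14 collagens that form or decorate fibrils, the surface SLRPs bind to, 0 passed and the median was -0.33. Of these 11 were negative, where 10416 of all 18193 genes were. Col2a1, the cartilage fibril collagen, had the smallest p of the list, with 7.22 to 7.5 on CAF arrays and 7.56 to 7.91 on normal arrays (-0.41 ± 0.08, limma adjusted p = 0.054). It was called with all probe sets tested singly, with probe sets averaged and with array weights. Col2a1 was not called by limma with trend and robust (adjusted p = 0.068) or with the prefix as a term (adjusted p = 0.306). It was too dim to be among the bright genes. Col11a1, a minor chain of fibrils, had -1.11 ± 0.43 (adjusted p = 0.174) and Col11a2 -0.20 ± 0.07 (adjusted p = 0.134). Col11a1 had -1.61 against the ls normal arrays alone and -0.79 against the vs arrays, and Col11a2 had -0.13 and -0.25 in the same order. Of 11 collagen assembly genes 0 passed (median -0.01). Among them were Loxl1, a lysyl oxidase (-0.52 ± 0.35, adjusted p = 0.391), Tnxb, a tenascin that links fibrils (-0.27 ± 0.15, adjusted p = 0.321), and the procollagen protease Adamts3 (-0.25 ± 0.13, adjusted p = 0.275). With only the ls normal arrays Loxl1 had -0.25 and Adamts3 -0.17, and with only the vs arrays Loxl1 had -0.71 and Adamts3 -0.31.

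Of 19 growth factors and receptors known to bind SLRPs, 0 passed and the median was 0.19. Of these 15 were positive, where 7777 of all 18193 genes were. Tlr2, a receptor of soluble biglycan, had 11.84, 9.55, 10.13, 10.64 and 10.74 on the CAF arrays, against 10.43, 9.36, 10.09, 9.0 and 8.84 on the normal arrays (1.03 ± 0.45, limma adjusted p = 0.209). Tlr4, which biglycan also engages, had 0.43 ± 0.22 (adjusted p = 0.275). Tlr2 had 1.66 and Tlr4 0.73 against the ls normal arrays alone, and 0.62 and 0.23 against the vs arrays. Both receptors are expressed by macrophages, and 13 of 15 macrophage markers also had a positive difference, with a median of 0.43 and 0 called; the part of macrophage RNA was not tested. Kdr, a receptor of vascular endothelial growth factor that decorin can bind, had -0.61 ± 0.25 (adjusted p = 0.192), or -0.37 with only the ls and -0.77 with only the vs normal arrays.

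Of 14 proteases that process or cut SLRPs, 0 passed and the median was -0.11. Of these 5 were positive, where 7777 of all 18193 genes were. Mmp13, a collagenase that can cut fibromodulin and biglycan, had 11.38, 10.57, 12.29, 11.10 and 11.07 on the CAF arrays, against 7.84, 10.41, 9.70, 10.51 and 9.66 on the normal arrays. In Mmp13, as in 2.97% of all genes, every CAF array was above every normal array, the lowest by 0.06 (1.66 ± 0.51, limma adjusted p = 0.111). It was 1.20 with only the ls and 1.96 with only the vs normal arrays. Mmp2, a gelatinase, had -0.53 ± 0.28 (adjusted p = 0.286) and Gzmb, granzyme B of killer lymphocytes, -0.23 ± 0.09 (adjusted p = 0.162). With only the ls normal arrays Mmp2 had -0.14 and Gzmb -0.16, and with only the vs arrays Mmp2 had -0.80 and Gzmb -0.28. Of 23 other proteoglycans 0 passed and 13 were positive (median 0.10). Gpc3, a cell surface glypican, had 7.20, 9.77, 7.39, 8.99 and 7.69 on the CAF arrays, against 10.59, 7.64, 11.21, 10.92 and 10.78 on the normal arrays (-2.02 ± 0.75, adjusted p = 0.158), with -2.65 against the ls and -1.61 against the vs arrays alone. It was low on normal replicate 2, the array on which 6 SLRP genes were highest. Acan, aggrecan, had -0.48 ± 0.17 (adjusted p = 0.15), or -0.86 with only the ls and -0.22 with only the vs normal arrays, and the testican Spock2 -0.22 ± 0.08 (adjusted p = 0.159).

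**Figure D4:**
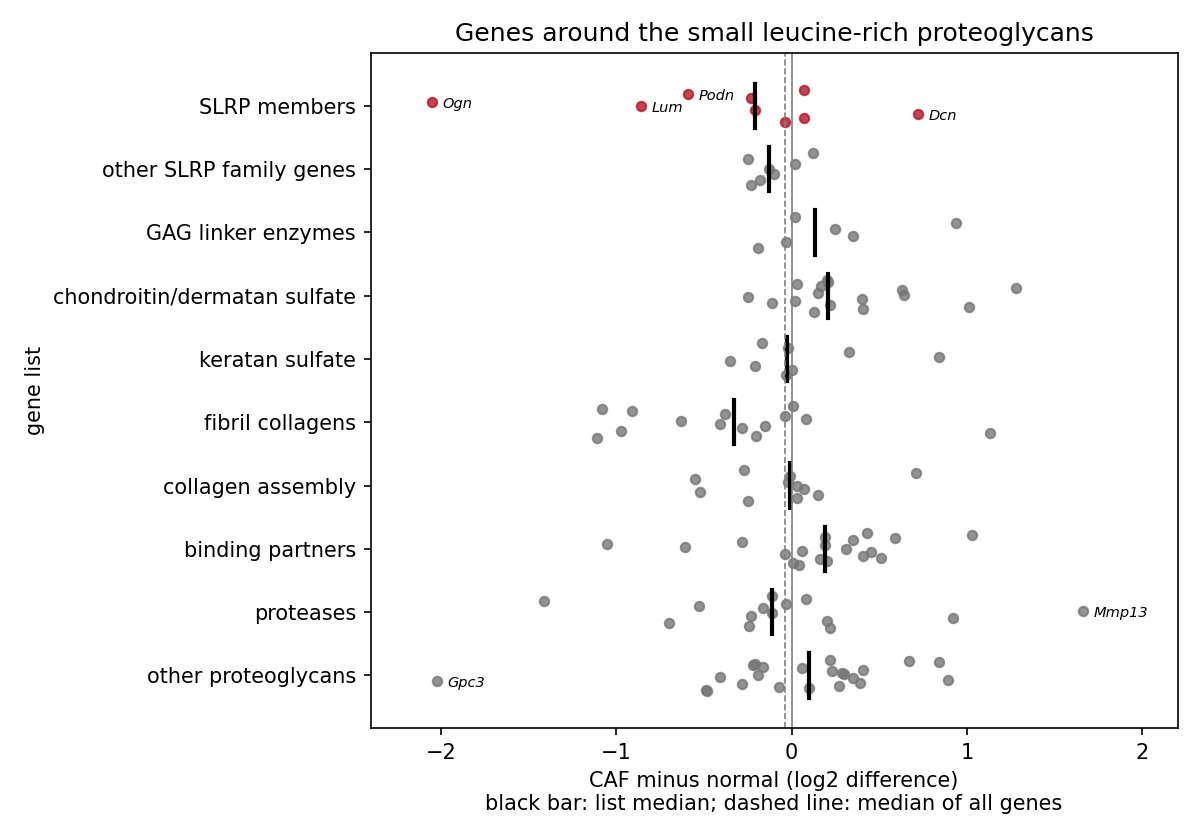
CAF minus normal log2 difference of each measured gene (points) in the SLRP list (red) and 9 lists of related genes (grey), with the list median as a black bar and the median of all genes, -0.04, as a dashed line. Medians lie between -0.33 for fibril collagens and 0.20 for chondroitin and dermatan sulfate enzymes, and single genes spread farther, with Ogn at -2.05 and Mmp13 at 1.66.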

How the data were processed

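Total RNA (6 ug per array) was labelled with biotin and hybridised to Affymetrix mouse arrays, 1 array per sample. The log2 expression values are as deposited by the authors, who made them with RMA in Affymetrix Expression Console per the submitters' processing notes; the notes also list limma. RMA subtracts background, quantile-normalises probes and summarises each probe set. Of 45037 probe sets that are no controls, 34945 had 1 gene symbol; symbols were updated through Entrez numbers. For each of 18193 genes the brightest probe set, by its mean over the 10 arrays, was used.

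Groups came from the sample titles. The test was limma (version 3.58.1, R 4.3.3) with lmFit and eBayes and group as the only term, checked first on simulated data. Benjamini-Hochberg adjustment ran over all genes, with 0.05 as the threshold. Exact 2-sided permutation tests used all 252 splits of the arrays, the smallest possible p being 0.00794. Every adjusted p printed is limma's unless another test is named. Named were all 9 SLRP genes, any called member and the 3 members with the smallest p of each related list, and, for likeness, the 2 genes with the highest Pearson r, 1 of which is not reported here. Lists of related genes and of cell markers have no set test and are given by counts and medians. The members, lists and alternatives were chosen with earlier results of these data known, and the promoter motifs after the values had been seen. Alternatives were quantile normalisation, median centring, bright genes only, other uses of probe sets, another variance model, array weights, the label prefix, a replicate block and leaving out arrays. The number of arrays, 5 per group, limits the precision.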

Additional observations from a re-analysis of the deposited data

Results flagged for a closer look

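In 3 of 72 groups of 5 arrays (36 named genes, 2 groups each), 1 array lay far from the others by Dixon's test, and chance alone gives such a gap in about 1 in 20 groups. Fmod had 8.29 on CAF replicate 4, where the other CAF arrays had 6.20 to 6.34, and that array was also the highest in the 5 dimmer probe sets of the gene. Gpc3 had 7.64 on normal replicate 2, where the other normal arrays had 10.59 to 11.21. Spock2 had 7.10 on CAF replicate 1, where the other CAF arrays had 7.37 to 7.45.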

How the results depend on the processing

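The count of called SLRP genes was 0 under every alternative run, with 1 to 4 members at an unadjusted p under 0.05 (4 with array weights, where 5877 of 18193 genes passed unadjusted). Where limma called 0 of all genes, as with the prefix as a term or a replicate block, that count was fixed. In the main fit 0.753% of all genes were called, so that 0 of 9 says little about these members. Dcn, Ogn, Podn and Omd kept their direction under all of their alternatives. Lum was 0.25 with array weights, 0.73 with the prefix as a term and 0.73 against the ls normal arrays. Prelp was -0.03 after quantile normalisation and -0.92 against the vs normal arrays. Aspn was 0.01 after quantile normalisation, 0.02 with probe sets averaged and 0.02 against the vs normal arrays. Fmod was 0.02 without both normal replicate 2 and CAF replicate 1, an alternative added after the data had been seen. When 1 array was left out, Aspn ran from -0.14 to 0.03, Bgn from -0.08 to 0.20, Lum from -2.04 to 0.20 and Prelp from -0.37 to 1.10. The cause was not tested. Over all genes limma called 137. It called 47 after median centring, 50 among bright genes only (6 of the 9 members, without Fmod, Aspn and Omd), 429 with probe sets tested singly, 46 with trend and robust, 1597 with array weights, 0 with the prefix as a term (2649 genes at an unadjusted p under 0.05), 1 against the ls normal arrays, 0 without normal replicate 2 and CAF replicate 1 (3665 unadjusted), and from 0 to 166 when 1 array was left out: 0 without CAF replicate 1, 3 or 5 or normal replicate 3, 1 without CAF replicate 4, 24 without normal replicate 1, 46 without normal replicate 5 and 63 without normal replicate 4. With the replicate number as a block it called 0 genes (3017 unadjusted) and 0 SLRP genes (1 unadjusted). Deviations of same-numbered arrays correlated at 0.34, -0.53, -0.48, -0.06 and -0.09. Whether the numbers pair the arrays cannot be told from these values, since cell markers also differed between arrays. Of the 27 other named genes none changed direction. Calls gained were Col2a1 with probe sets tested singly, probe sets averaged and array weights, and Nyx, Chst3, Mmp13, Acan and Gpc3 with array weights. Dim genes, such as Aspn, Omd and Kera, are limited by signal over background, which the deposited values do not give.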
